A study of Homo sapiens with 4 samples.

Results

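The seed group of the miR-15/16 family and of miR-103 and miR-107 was examined in 2 arrays of MG cells and 2 arrays of non-MG cells, both subpopulations of the colon cancer line HCT116. Its 6 members, chosen by name, were miR-15a-5p, miR-15b-5p, miR-16-5p, miR-195-5p, miR-103a-3p and miR-107, out of 851 human miRNAs and 939 miRNAs in all on an Agilent human miRNA array. Non-MG cells, labelled low migratory, were those that stayed on the upper membrane of a transwell chamber, and MG cells, labelled high migratory, were those that passed to its lower side, after repeated rounds of this selection. All cells carried wild-type p53 and grew in the same serum-containing medium, and no agent was given. The labels do not say whether the replicates were separate cultures, so the p-values measure only the spread between these arrays, and 2 arrays a group limit the precision of every value. In bulk RNA, fewer cells carrying a miRNA and less of it per cell cannot be told apart.

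A mature miRNA finds its targets mainly through its seed, the stretch from base 2 to base 8 at its 5′ end. The miR-15/16 family is known for repressing D-type and E-type cyclins and the apoptosis inhibitor BCL2, and so for holding back the cell cycle. miR-103 and miR-107 lie in introns of genes for pantothenate kinases, which catalyse the first step of coenzyme A synthesis, and are known for regulating insulin sensitivity and for repressing Dicer, the enzyme that cuts miRNA precursors. Both families carry the same string, AGCAGC, near the 5′ end.

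The mature sequences of the 6 members are shown for this shared string and for the few bases by which close members, each read by probes of its own, differ. They are RefSeq entries on build GRCh38.p14, all 6 members were matched by name, and capitals mark the seed.

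hsa-miR-15a-5p: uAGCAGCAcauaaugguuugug
hsa-miR-15b-5p: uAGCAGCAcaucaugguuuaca
hsa-miR-16-5p: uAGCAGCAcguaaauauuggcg
hsa-miR-195-5p: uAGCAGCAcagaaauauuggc
hsa-miR-103a-3p: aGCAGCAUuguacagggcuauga
hsa-miR-107: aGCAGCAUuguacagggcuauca

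miR-15a, miR-15b, miR-16 and miR-195 shared the seed AGCAGCA, and miR-103a and miR-107 shared a different seed, GCAGCAU. The string AGCAGC common to both families starts at base 2 in the first and at base 1 in the second. Counted from 1 at the 5′ end, miR-103a and miR-107 differed at 1 of 23 bases, G22C. miR-16 and miR-195 differed at 2 of the 21 bases they have in common, G10A and U11G. miR-15a and miR-15b differed at 4 of 22 bases, A12C, G20A, U21C and G22A, while miR-15b and miR-16 differed at 8 of 22.

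The members come from several loci, given here on GRCh38.p14. miR-15a lies at chr13:50049167-50049188 on the minus strand, beside 1 of the 2 copies of miR-16 at chr13:50049027-50049048, and both precursors lie within the noncoding gene DLEU2. miR-15b lies at chr3:160404607-160404628 on the plus strand, beside the other copy of miR-16 at chr3:160404754-160404775, within SMC4, which encodes a condensin subunit, and within the span of the readthrough gene TRIM59-IFT80. Both copies of miR-16 give the same mature RNA, so its array signal is the sum of both loci. miR-195 lies at chr17:7017667-7017687 on the minus strand within its host gene MIR497HG. miR-103a has a copy at chr5:168560904-168560926 on the minus strand within PANK3 and another at chr20:3917541-3917563 on the plus strand within PANK2, and miR-107 lies at chr10:89592756-89592778 on the minus strand within PANK1.

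Of the 6 members, 5 were detected on all 4 arrays, and miR-195 was detected on none. A miRNA was detected when at least 1 of its probes stood above 3 times its error. Each member was read by 2 probes with 8 spots each. For miR-15b, miR-16, miR-103a and miR-107, all 16 spots were well above background on every array. miR-15a was dimmer, with 16 and 13 of 16 spots well above background in non-MG cells, compared with 14 and 8 of 16 in MG cells.

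The probes of miR-195 gave background-subtracted signals between -2.05 and 0.528, none of the 8 values stood above 3 times its error, and 0 of 64 spots over the 4 arrays were well above background. Its signal was therefore not above background in MG or in non-MG cells, and no fold change was computed. miR-16, which differs from it at 2 bases, was read at all 64 spots of its own probes on the same arrays.

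The other miRNAs of the group were found by their sequence. In the RefSeq table, 13 of 2370 human mature miRNAs (0.549%) carried AGCAGC within bases 1 to 8, and 10 of these were on the array, the 6 members among them. The other 4 were miR-424-5p, miR-497-5p, miR-503-5p and miR-646, and 0 of them were detected on any array. Their highest background-subtracted probe signals were 0.781 for miR-424-5p, -0.146 for miR-497-5p, -0.179 for miR-503-5p and -0.315 for miR-646. miR-497 is made from the same host transcript as miR-195, and miR-424 and miR-503 from neighbouring genes on chromosome X. In both MG and non-MG cells, the seed group was thus read through the same 5 of 10 miRNAs.

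**Figure D1:**
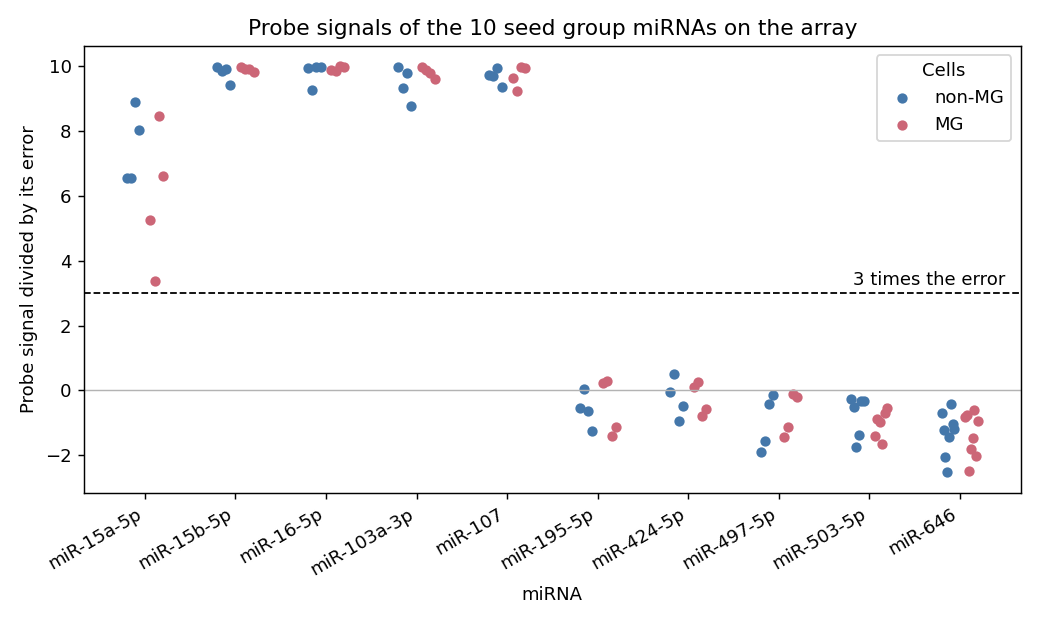
Background-subtracted probe signal divided by its error for the 10 seed group miRNAs on the array, with a point for each probe on each array, non-MG cells in blue and MG cells in red. Every probe of the 5 detected members lay above the dashed line at 3 times the error, and every probe of miR-195, miR-424-5p, miR-497-5p, miR-503-5p and miR-646 lay below it.

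The array also carried the opposite strands of the precursors, which are usually degraded. Those of miR-15a, miR-15b, miR-16-1 and miR-195 were detected on 0 arrays. The opposite strand of miR-16-2 was detected on 1 of 4 arrays, non-MG replicate 1, where 1 of its 4 probes had a signal of 2.57. Apart from these strands, miR-103b, the exact reverse complement of miR-103a, was detected on 0 arrays, with probe signals between -3.33 and -0.462.

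As a check of the cell type, 5 of 8 miRNAs known from epithelium in general or from colon were detected on all 4 arrays, namely miR-200a, miR-200b, miR-200c, miR-141 and miR-429. The others, miR-192, miR-194 and miR-215, were detected on none. Of 11 miRNAs known from blood, stroma, endothelium, liver, muscle and neurons, 9 were detected on no array, miR-126 was detected on all 4 and miR-145 on 3. The summed scaled signal of the epithelial or colon list was 669 to 730 in non-MG cells and 631 to 651 in MG cells. That of the 11 others was 15.3 to 15.9 in non-MG cells and 8.78 to 14.6 in MG cells. Their part in the members' values was not tested. The 4 arrays shared 1 slide, on which row 1 held the non-MG samples, in columns 3 and 4. Row 2 held the MG samples, in columns 1 and 2. The effect of the position on the slide, by row or by column, and that of the group cannot be told apart. Between 8.71% and 11.1% of miRNA spots per array were well above background.

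Signals below are scaled signals: the probes of a miRNA above 3 times their error were summed, and each array was brought to a common 75th percentile, taken over the 116 miRNAs that all 4 arrays detected. A fold change is MG over non-MG, as a ratio of geometric means. Levels of different miRNAs are not compared, because each has its own probes.

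In the miR-15/16 family, miR-15b and miR-16 were at nearly the same level in MG and non-MG cells. Non-MG cells gave signals of 294 and 298 for miR-15b, and MG cells gave 285 and 306. The non-MG values lay between the MG values. The means were 296 ± 2.16 (SD, n = 2) in non-MG cells and 296 ± 14.8 (SD, n = 2) in MG cells, a fold change of 0.999 with a 95% interval of 0.812 to 1.23 (adjusted p = 0.993, limma).

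miR-16, the family member made from both the DLEU2 and the SMC4 locus, gave 392 and 388 in non-MG cells, compared with 402 and 377 in MG cells. Here too the MG values enclosed the non-MG values. The means were 390.0 ± 2.72 (SD, n = 2) in non-MG cells and 389 ± 17.9 (SD, n = 2) in MG cells, a fold change of 0.997 with a 95% interval of 0.811 to 1.23 (adjusted p = 0.993, limma).

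miR-15a, the partner of miR-16 in DLEU2, was lower on both MG arrays, but it was too dim for the test. Non-MG cells gave signals of 30.2 and 36.1, and MG cells gave 26.8 and 22.9. The groups did not overlap. The means were 33.2 ± 4.15 (SD, n = 2) in non-MG cells and 24.8 ± 2.76 (SD, n = 2) in MG cells, a fold change of 0.749. Its unscaled signal stayed below 50 on every array, the minimum that a miRNA had to reach on at least 1 array to be tested. With the minimum at 20, over 91 human miRNAs, limma gave it a 95% interval of 0.60 to 0.935 and an adjusted p = 0.0547 (unadjusted p = 0.0116), which does not pass 0.05, and without any minimum the adjusted p was 0.366. With the lower minimum, 15 of 91 miRNAs passed (16.5%), and the groups did not overlap for 52 (57.1%), beside 2 of the 5 members, miR-15a and miR-107. Under normexp background correction the fold change of miR-15a was 0.919. On MG replicate 2, the first of its probes read only 3.39 times its error. That array had the fewest detected miRNAs, 118, and the lowest share of spots well above background, 8.71%. With the minimum at 20, the median log2 change was -0.095, and the log2 change of miR-15a relative to that median was -0.32.

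miR-103a, made from the PANK3 and PANK2 loci, gave 242 and 219 in non-MG cells, compared with 230 and 234 in MG cells. The MG values lay between the non-MG values. The means were 230.3 ± 15.9 (SD, n = 2) in non-MG cells and 232 ± 3.19 (SD, n = 2) in MG cells, a fold change of 1.01 with a 95% interval of 0.820 to 1.24 (adjusted p = 0.993, limma).

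miR-107, from PANK1, gave 208 and 213 in non-MG cells, compared with 206 and 194 in MG cells. Both MG values lay below both non-MG values, by a small margin, and the groups overlapped without scaling, with median scaling and with quantile normalization. The means were 211 ± 3.72 (SD, n = 2) in non-MG cells and 199.7 ± 8.69 (SD, n = 2) in MG cells, a fold change of 0.948 with a 95% interval of 0.771 to 1.17 (adjusted p = 0.790, limma).

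**Figure D2:**
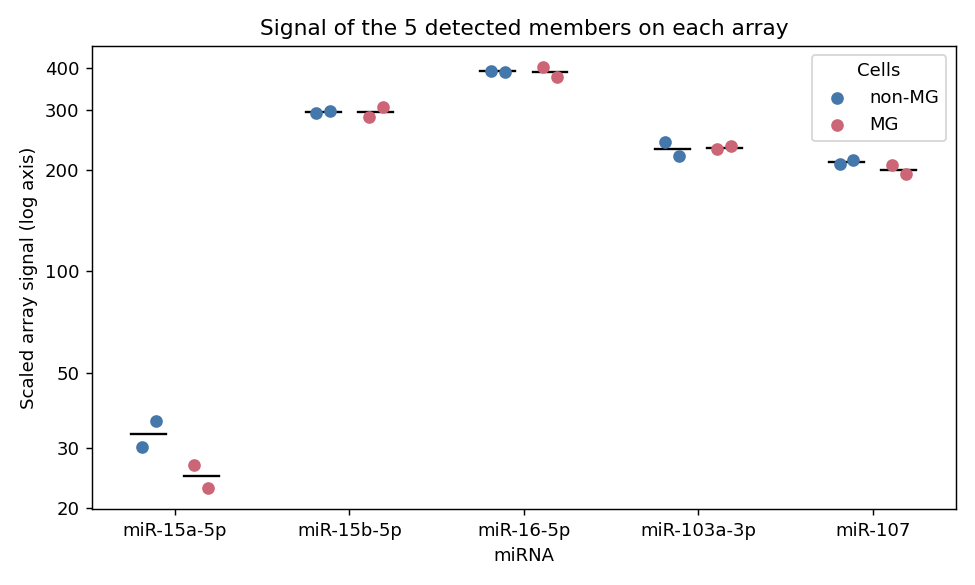
Scaled signal on a log axis for the 5 detected members, with a point for each array, non-MG cells in blue, MG cells in red, and a line at each group's mean. The groups overlap for miR-15b, miR-16 and miR-103a, lie close together for miR-107, and are apart for miR-15a, whose signals lie between 22.9 and 36.1.

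Of the 4 members tested, limma called 0 at an adjusted p under 0.05, and 0 had an unadjusted p under 0.05. Over all 57 human miRNAs tested, 14 were called (24.6%) and 19 had an unadjusted p under 0.05. The arrays of the groups did not overlap for 1 of the 4 members, miR-107, and for 35 of the 57 miRNAs (61.4%). In this fit, the intervals of the 4 members reached from 0.771 to 1.24 at their widest. They lay inside the mean change of 1.5-fold that the study used as its criterion. The interval of miR-15a with the lower minimum went past this criterion on its low side. limma gave all 57 miRNAs 1 common SD of 0.151 on the log2 scale. The intervals of the 4 members thus rest on that pooled spread and not on the arrays of each member. That of miR-15a came from the fit over 91 miRNAs and rested mainly on their pooled spread.

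The members' own spread was smaller than this. The SD of log2 signals within groups was 0.0516 for miR-15b, 0.0474 for miR-16, 0.0718 for miR-103a and 0.0479 for miR-107, beside a median of 0.108 over the 57 miRNAs. For the dimmer miR-15a it was 0.171.

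By the size of the change, miR-15b had the smallest of the 57 miRNAs, miR-16 the 4th smallest, miR-103a the 5th smallest and miR-107 the 14th smallest. The median size was 0.21 on the log2 scale over the 57, and the median change was -0.08. The order depended on the scaling. With median scaling miR-107 came 6th and miR-15b 12th from the smallest, and with quantile normalization miR-103a came 31st. The sign of the change of miR-15b, miR-16, miR-103a or miR-107 turned under at least 1 of these settings or with 1 array left out, so no direction is given for them. With the minimum at 20, miR-15a came 74th from the smallest of 91.

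**Figure D3:**
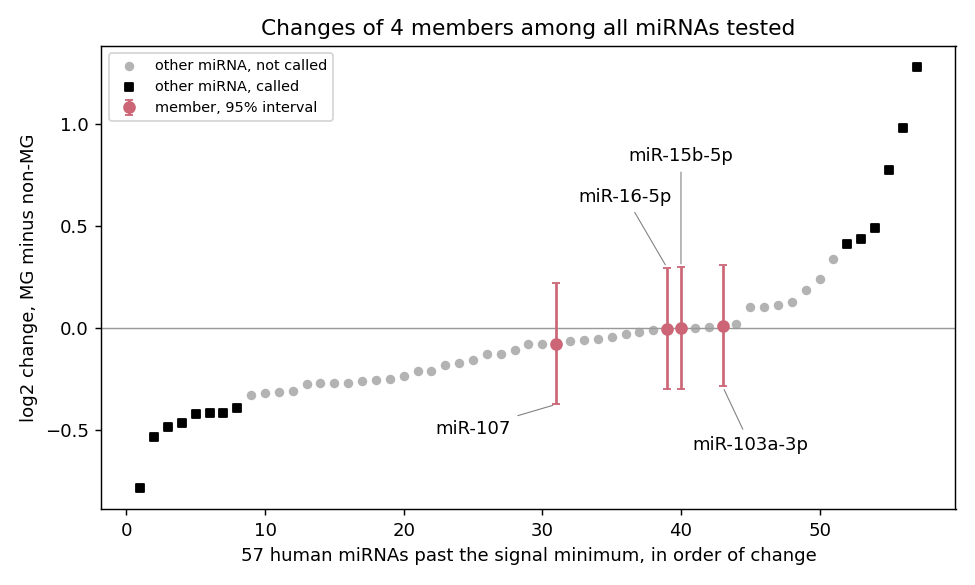
log2 change, MG minus non-MG, of the 57 human miRNAs past the signal minimum, in order, with the 14 called ones as black squares, the others in grey and the 4 tested members in red with their 95% intervals. The members lie on the flat middle stretch between the called miRNAs, and all 4 intervals include 0.

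Both probes of miR-15a were lower in MG cells. Its first probe, with signals of 9.23 and 13.7 in non-MG cells against 7.56 and 6.63 in MG cells, had a fold change of 0.630. Its second probe, with 21.0 and 22.4 against 19.2 and 16.3, had a fold change of 0.814. The groups did not overlap for either probe. They also did not overlap for the second probe of miR-103a and the first probe of miR-107. For the remaining probes of the detected members they overlapped. At the level of whole miRNAs, with the minimum at 20, the groups did not overlap for 52 of 91 (57.1%). The share over all probes was not computed. Both probes of miR-15a read the same RNA on the same arrays and are not separate observations.

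The probes of miR-15b had fold changes of 0.985 and 1.03, and those of miR-16 of 0.965 and 1.01, with overlapping arrays for all 4 probes. The probes of miR-103a and miR-107 diverged more. The first probe of miR-103a had a fold change of 1.06 with overlapping arrays. The second gave 73.9 and 65.4 in non-MG cells against 62.1 and 62.3 in MG cells, a fold change of 0.895 without overlap. How far the probes of miR-103a and miR-107, which differ at 1 base, bind each other's target was not tested. For miR-107, the first probe gave 47.3 and 63.2 in non-MG cells against 44.3 and 44.2 in MG cells, a fold change of 0.809, while the second, with 161 and 150.0 against 162 and 149, had a fold change of 1.00. The MG values of miR-107 were thus lower at the first probe, where non-MG replicate 2 stood above the other 3 arrays, and overlapped at the second. Between the spots of a probe on an array, the coefficient of variation had a median of 8.76% over the 40 probe and array pairs of the 5 detected members, with a range of 1.33% to 53.1%. The highest values were on non-MG replicate 2. There the probes of miR-103a gave 39.9% and 53.1%, those of miR-107 2.89% and 38.7%, those of miR-16 40.1% and 5.49%, and those of miR-15b 16.5% and 34.8%. On the other arrays the highest was 31.1%, for the first probe of miR-15a on MG replicate 1.

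**Figure D4:**
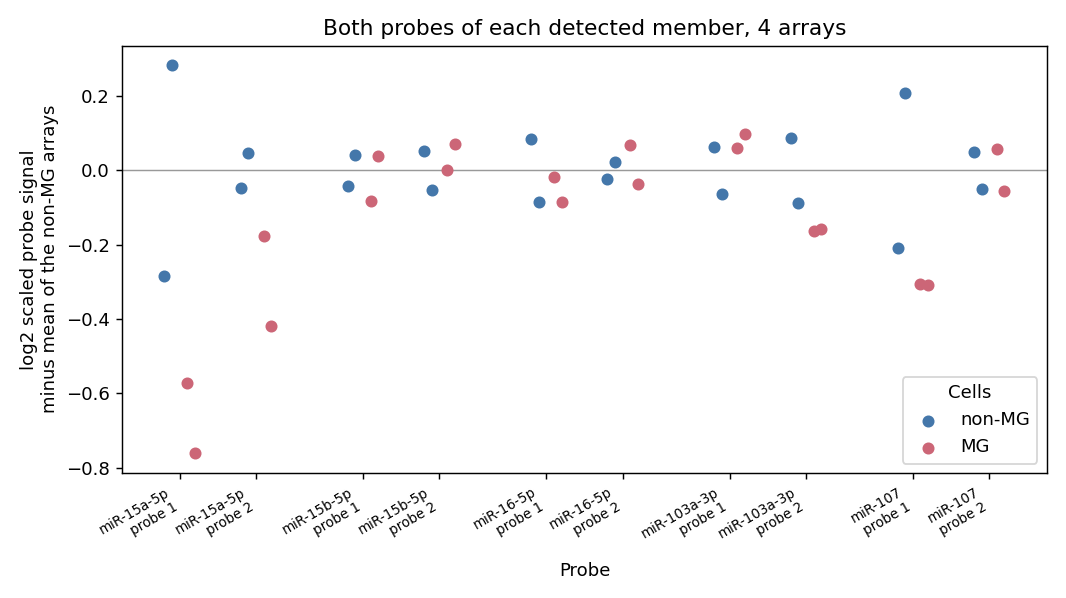
log2 scaled signal of each probe of the 5 detected members on each array, minus the mean of its non-MG arrays, with non-MG cells in blue and MG cells in red. Both probes of miR-15a have their MG points below their non-MG points, while the probes of miR-103a and of miR-107 each show 1 probe with MG points below and 1 with overlapping points.

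The cell-cycle linked members were then set against the metabolism linked ones. The mean log2 change was -0.0025 for miR-15b and miR-16 and -0.033 for miR-103a and miR-107. The difference of 0.030 was about as large as its SD within groups, 0.032, and the arrays overlapped, with scores of -0.041 and 0.011 in non-MG cells against -0.0021 and 0.032 in MG cells. No test was made of this score. With miR-15a in the first mean, the difference was -0.11.

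Within an array, a ratio of 2 members is free of the scaling, and its log2 value, MG minus non-MG, was compared for the 10 pairs of the 5 detected members by a two-sided exact permutation test over the 4 arrays. With 6 arrangements the smallest p this test can give is 0.333, so no pair could pass 0.05. The difference was 0.09 for the ratio of miR-103a to miR-107 (SD within groups 0.11, exact p = 0.667) and 0.0024 for that of miR-15b to miR-16 (SD within groups 0.099, exact p = 1). It was -0.42 for the ratio of miR-15a to miR-15b and -0.41 for that to miR-16, with SDs within groups of 0.20 and 0.15, and -0.43 for the ratio of miR-15a to miR-103a and -0.34 for that to miR-107. In all 4 ratios with miR-15a the groups did not overlap, with an exact p = 0.333 and an adjusted p = 0.667 over the 10 pairs. These 4 ratios share the same dim miR-15a values and are not separate observations. How often ratios of the other miRNAs tested do not overlap was not computed. The groups also did not overlap for miR-16 over miR-107, which differed by 0.07, and they overlapped in the other 5 pairs.

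The likeness of profiles was measured as the root mean square difference of centred log2 signals over the 4 arrays, where a smaller value is more alike. Among the 53 other miRNAs tested, those nearest to the mean of miR-15b and miR-16 were miR-331-3p (0.0334), miR-151a-5p (0.0440) and let-7a-5p (0.0446), against a median of 0.171. Those nearest to the mean of miR-103a and miR-107 were miR-151a-5p (0.0220), let-7a-5p (0.0282) and the withdrawn entry miR-923 (0.0405), against a median of 0.164. The members of the other subgroup were at like distances. miR-103a and miR-107 both lay 0.051 from the miR-15b and miR-16 mean, and miR-16 lay 0.030 and miR-15b 0.055 from the miR-103a and miR-107 mean. These distances describe 4 arrays and carry no test. The centred signals of miR-15b and miR-16 had opposite signs on every array, with -0.052 and 0.045 on MG replicate 1 and 0.050 and -0.049 on MG replicate 2. Their mean profile was thus nearly flat, and a miRNA near it varied little over the arrays, which does not show a shared pattern.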

How the data were processed

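Total RNA of 2 MG and 2 non-MG samples was labelled with Cy3 and hybridised to Agilent human miRNA arrays. The authors deposited Feature Extraction 10.7.1.1 files in which each spot, each probe and each miRNA has an intensity with the background subtracted, and a table of 1 intensity per miRNA and array. None of these is normalized between arrays. The study's methods name GeneSpring and a minimum intensity of 50, and no normalization or test for the arrays is given in the sources used here.

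Probe signals above 3 times their error were summed per miRNA. These sums match the deposited table within 0.05% for the 142 detected miRNAs, of which 6 were matched by value alone. Arrays were brought to a common 75th percentile, computed from 116 miRNAs present on every array, and log2 was taken after a floor of 1. Human miRNAs whose unscaled sum reached 50 on 1 or more arrays were tested with limma 3.58.1 in R 4.3.3 (two-sided, Benjamini-Hochberg over all 57, threshold 0.05), without a replicate block. The fit was tested on simulated data with independent noise of 1 common SD for all miRNAs. That check does not cover unequal spread between miRNAs or arrays that deviate together. Python 3.11.15 with pandas 2.3.3 was used to parse the files.

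The miRNAs named are the 6 members, the others with AGCAGC in bases 1 to 8, the opposite strands of the precursors and miR-103b. The marker lists and the 3 miRNAs nearest in profile to each subgroup are also named. The members and lists were chosen with earlier results of these data known. Sequences are from RefSeq, while the scanner files name build hg19. Alternatives covered signal, background correction, scaling, floor, minimum signal, empirical Bayes trend, replicate block and each array left out. The RT-qPCR, reporter and migration experiments were not analysed here.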

Additional observations from a re-analysis of the deposited data

How the results depend on the processing

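miR-15b, miR-16, miR-103a and miR-107 were tested under each of the 16 alternatives, all planned, and limma called none of them. miR-15a was tested under only 2, the minimum of 20 and no minimum, and was not called, and miR-195 was tested under none. Among the alternatives, the deposited table holds the same sums within 0.05%, and a floor of 10 changed no value of the 5 detected members. Neither is a separate check. Leaving out 1 array in turn gave log2 changes of -0.052 to 0.050 for miR-15b, -0.051 to 0.043 for miR-16, -0.059 to 0.082 for miR-103a and -0.12 to -0.033 for miR-107, and of -0.54 to -0.29 for miR-15a. The sign turned for miR-15b under normexp (0.0070), median scaling (0.048) and quantile normalization (0.057), without non-MG replicate 2 (0.0062) and without MG replicate 1 (0.050). It turned for miR-16 under normexp (0.0014) and median scaling (0.046) and without non-MG replicate 1 (0.00345) and MG replicate 2 (0.043), for miR-103a with the scanner files' totals (-0.21) and without non-MG replicate 2 (-0.059) and MG replicate 2 (-0.0024), and for miR-107 under quantile normalization (0.072). With the totals, the median change of the miRNAs tested was -0.29, beside -0.08. The log2 change of miR-15a was -0.64 with the totals and -0.12 under normexp, which adds an offset to every spot. The difference between the subgroups, 0.030, was -0.083 under quantile normalization and 0.0039 to 0.057 with 1 array left out. With the totals, the unscaled signals of the detected members were the same apart from rounding, so only their scaling differed. What causes the other shifts was not tested.

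The number of miRNAs called, 14, was 0 with the totals (28 at an unadjusted p under 0.05), 6 without scaling, 1 without a minimum signal, and 3 to 11 with 1 array left out (5 without non-MG replicate 1, 3 without non-MG replicate 2). With the replicate block it was 8, and the block changed no call of the 4 members tested. Same-numbered arrays deviated together (correlation 0.481 across miRNAs), but with 2 pairs and no shared day or culture in the labels they share only a number. Called miRNAs were higher in MG cells in 6 of 14, in 7 of 11 with median scaling and in 6 of 11 with quantile normalization. Scaling to a 75th percentile of the whole array could not be run, since that percentile is 0, and the slide was not used as a block, since there is 1.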

Other observations

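Signals of 2 members reappeared in the scanner files' totals of other miRNAs. On non-MG replicate 1, the file's total for the opposite strand of miR-16-2 was 313, of which 2.57 came from its own probes, and the excess of 310.6 equalled the probe sum of miR-15b within 0.05%. The totals of miR-17-3p were 420.1, 376 and 412 on non-MG replicate 1, non-MG replicate 2 and MG replicate 1, where its own probes gave 6.65, 8.41 and 4.37, and each excess equalled the probe sum of miR-16 on that array, 413, 368 and 408. Over the arrays, 31, 27, 37 and 31 totals lay above the miRNA's own probes, and for 31, 27, 35 and 31 of them the excess equalled the total of another miRNA within the same tolerance. The totals of the 5 detected members held no such excess.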
